A study of Mus musculus with 32 samples.

Results

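H2-Q8 is a nonclassical MHC class I gene of the mouse, and its transcript was followed with 1 of the 33012 probes that are not controls on a 1-color oligonucleotide array. The probe was chosen because it is annotated with a RefSeq transcript of H2-Q8, and the gene was selected on its measured signal, which was known to differ between the 8 groups of this series. Its levels and differences are therefore a description, and no difference between groups was tested for this gene. RNA came from bone marrow-derived cells of 8 C57Bl/6 mice, 4 Pparg+/- LysCre (replicates 1 to 4) and 4 Pparg fl/- LysCre (replicates 5 to 8). LysCre is Cre recombinase driven from the lysozyme M locus, which is active in myeloid cells and deletes the floxed Pparg allele there. The Pparg+/- LysCre controls thus carried the same Cre and already lacked 1 Pparg allele. The marrow of each mouse was grown for 9 days in 20 ng/ml IL-4 with either 20 ng/ml M-CSF, which gave IL-4 macrophages, or 20 ng/ml GM-CSF, which gave immature dendritic cells (iDCs). Each culture received vehicle (DMSO and ethanol) or 1 µM rosiglitazone (RSG), an agonist of PPARγ. This gave 8 groups of 4 arrays, 32 in all, and every mouse is on 4 of them.

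MHC class I molecules pair a heavy chain with β2-microglobulin and display short peptides from inside the cell, where CD8+ T cells and NK cells read them. The classical genes are highly polymorphic and broadly expressed. The H2-Q genes lie in the Q region of the mouse MHC, and several of them encode the Qa-2 antigens, nonclassical class I molecules of limited polymorphism that can be held in the membrane by a lipid anchor or secreted. Class I genes as a family are raised by interferons, and dendritic cells are the cells best known for presenting antigen to naive T cells. The H2-Q genes are closely similar in sequence and the probe sequences are not used here, so how far each probe also binds transcripts of other members was not tested. On the 8 macrophage arrays of Pparg+/- LysCre mice the H2-Q8 probe was not detected, while the H2-Q7 probe had S/N of 48.3 or more.

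Between 13595 and 16683 probes per array had a signal-to-noise ratio (S/N) of at least 3, the limit used here for detection. Only 311 probes could be given 1 gene symbol. None of the listed macrophage or dendritic cell markers was among them, and Pparg was not analysed here, so the cell type and genotype labels were not checked on these genes. Mouse 5 of the Pparg fl/- LysCre group stood apart. With vehicle, leaving it out took the probes called between genotypes from 26 to 2488 for macrophages and from 471 to 2029 for iDCs. The differences of H2-Q8 that involve this mouse are also given without it. Mouse 5 was singled out on these same data, and calls without it were far more common in these comparisons. For all genes below, p-values without it therefore describe the remaining mice and are no independent test. The arrays were scanned on 4 days, each with 2 mice of 1 genotype, so that scan day and mouse cannot be told apart from genotype between mice, whereas vehicle, RSG and both cell types of a mouse share its day.

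The H2-Q8 signal was high in every iDC array, below detection in every Pparg+/- LysCre macrophage array and in between in the macrophages of 3 of the 4 Pparg fl/- LysCre mice. All values that follow are quantile normalized log2 signals of this probe. Of the 32 arrays, 23 detected it. In vehicle-treated Pparg+/- LysCre macrophages the 4 mice had 9.07, 9.31, 9.05 and 9.69, with S/N from 0.24 to 2.53, and a mean of 9.28 ± 0.30 (SD, n = 4). In RSG-treated macrophages of the same mice the values were 9.08, 9.36, 10.67 and 9.73, with S/N from 0.15 to 1.70 and a mean of 9.71 ± 0.69. These 8 arrays show only that the transcript was not well above background there. In bulk RNA such as this, fewer cells that make a transcript and less of it per cell cannot be told apart.

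In Pparg fl/- LysCre macrophages treated with vehicle, replicates 5 to 8 had 10.46, 12.55, 13.44 and 13.09, with S/N of 1.66, 14.9, 28.7 and 32.2. The mean was 12.39 ± 1.34 (n = 4), and 13.03 ± 0.45 (n = 3) without replicate 5. With RSG the same mice had 9.64, 13.15, 14.20 and 13.25, with S/N of 15.4, 39.5, 11.7 and 25.3, and the mean was 12.56 ± 2.00, or 13.53 ± 0.58 without replicate 5. Replicate 5 was the lowest and replicate 7 the highest under both treatments. The RSG array of replicate 5 passed the S/N limit at a lower signal than its vehicle array, which did not pass it.

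**Figure D1:**
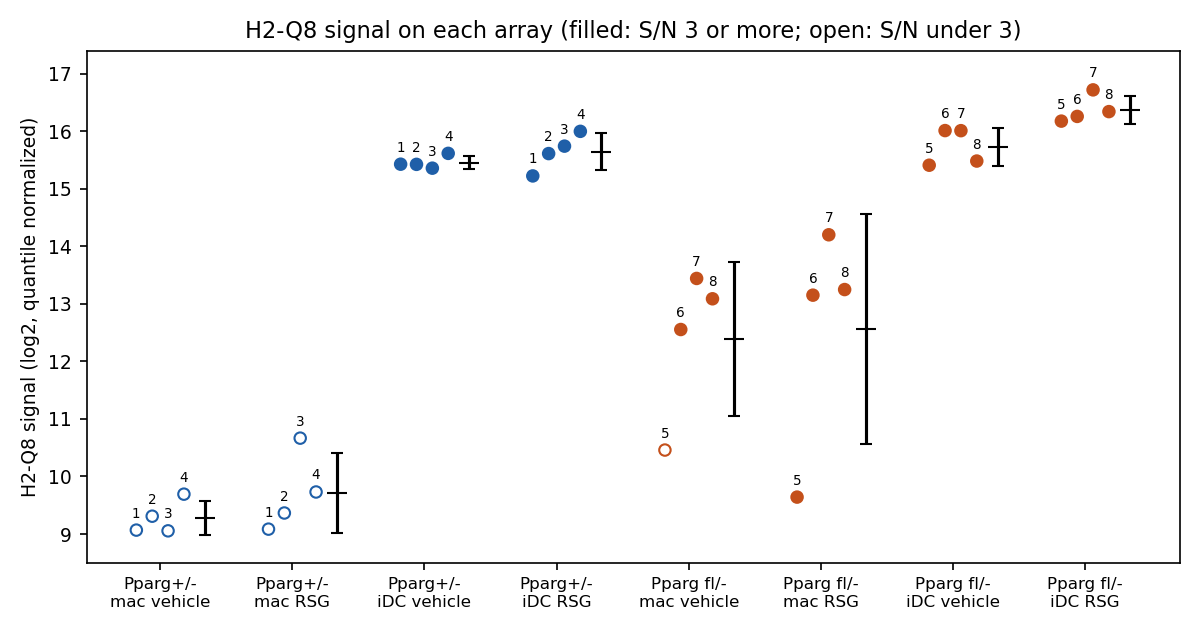
H2-Q8 signal (log2, quantile normalized, y axis) on each of 32 arrays in the 8 groups of genotype, cell type (mac, IL-4 macrophages) and treatment. Numbers are the mice, filled points have S/N of at least 3, open points less, and bars are mean ± SD of 4 arrays: all 16 iDC arrays lie at 15.22 or above, all 8 Pparg+/- LysCre macrophage arrays are open, and mouse 5 lies apart from mice 6 to 8 in macrophages.

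In vehicle-treated iDCs, Pparg+/- LysCre mice had 15.43, 15.43, 15.36 and 15.62 (mean 15.46 ± 0.11), and with RSG 15.22, 15.61, 15.74 and 16.00 (mean 15.64 ± 0.32). Pparg fl/- LysCre iDCs had 15.41, 16.01, 16.01 and 15.48 with vehicle (mean 15.73 ± 0.33) and 16.18, 16.26, 16.72 and 16.34 with RSG (mean 16.37 ± 0.24). The S/N on the 16 iDC arrays ran from 27.6 to 77.7. Replicate 5 was the lowest Pparg fl/- LysCre mouse here too, but lay next to the second lowest, with 15.41 beside 15.48 and 16.18 beside 16.26.

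Ordered by their means, the groups ran from vehicle-treated and RSG-treated Pparg+/- LysCre macrophages through vehicle-treated and RSG-treated Pparg fl/- LysCre macrophages to vehicle-treated and RSG-treated Pparg+/- LysCre iDCs, then vehicle-treated and RSG-treated Pparg fl/- LysCre iDCs. Of the 7 steps in signal between neighbours, 3 were larger than the SD pooled over both groups. These were the step of 2.67 from RSG-treated Pparg+/- to vehicle-treated Pparg fl/- macrophages (pooled SD 1.06), the step of 2.90 from RSG-treated Pparg fl/- macrophages to vehicle-treated Pparg+/- iDCs (1.42), and the last, of 0.65 from vehicle to RSG in Pparg fl/- LysCre iDCs (0.29). The other 4 neighbours did not differ beyond their spread. At the first of the 3 larger steps, no array of the lower group was above detection, nor was replicate 5 of the higher group. The 2.67 is thus a step in signal, and the size of the transcript difference was not measured. Replicate 3 of the lower group (10.67) and replicate 5 of the higher group (10.46) were both below detection, so whether these groups overlap cannot be read.

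The widest contrast was that between iDCs and macrophages of Pparg+/- LysCre mice. In vehicle-treated Pparg+/- LysCre cells the signal of iDCs was at least 72.3-fold that of macrophages, and in RSG-treated cells at least 61.1-fold. These are lower bounds. The macrophage arrays were not above background, so each entered at the higher of its own signal and the lowest detected signal on that array, and its own signal was the higher on all 8. Within mice the log2 difference was 6.36, 6.12, 6.30 and 5.92 with vehicle and 6.14, 6.25, 5.08 and 6.27 with RSG, so all 4 mice showed it under both treatments. By scan day the fold in signal was 75.5 and 69.3 with vehicle and 73.2 and 50.99 with RSG. The ranges of iDCs and macrophages did not overlap, as was the case for 43.8% (vehicle) and 42.2% (RSG) of the 16620 probes that passed the detection filter.

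In Pparg fl/- LysCre cells the difference between cell types was smaller, and the macrophages of 3 mice had a detected signal under both treatments. In signal it was 3.34 on the log2 scale (10.15-fold) with vehicle and 3.81 (14.1-fold) with RSG. With vehicle the macrophage array of replicate 5 was not above background, so the 3.34 is no lower bound. In replicate 5 the difference in signal was 4.95 with vehicle, likewise no bound, and 6.54 with RSG. Replicates 6, 7 and 8 had 3.46, 2.57 and 2.39 with vehicle and 3.11, 2.52 and 3.09 with RSG. Without replicate 5 the means were 2.81 (7.00-fold) and 2.91 (7.50-fold). By scan day the fold in signal with vehicle was 18.4 for replicates 5 and 6 and 5.58 for replicates 7 and 8. With RSG it was 28.3 and 6.99. Cell types did not overlap in either treatment, and neither did they for 33% (vehicle) and 26.7% (RSG) of all tested probes.

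Between genotypes, the wide difference was in macrophages. With vehicle the means differed by 3.10 on the log2 scale (8.60-fold, higher in Pparg fl/- LysCre macrophages). This is no bound, since replicate 5 of the higher group and every array of the lower group were below detection. Without replicate 5 the measured signal was 13.4-fold higher, which is no lower bound either. Replicate 5 (10.46, S/N 1.66) and the highest Pparg+/- LysCre mouse (9.69, S/N 2.53) were both below detection, so their order says nothing, and nothing is read from the 12.8% of tested probes whose genotypes did not overlap here. With RSG the measured Pparg fl/- LysCre signal was 7.21-fold higher (2.85 on the log2 scale), and 14.1-fold higher without replicate 5. These are again steps in signal and not lower bounds. Here replicate 5, detected at 9.64, lay below 2 of the 4 Pparg+/- LysCre values, which were themselves not above background. Replicates 6, 7 and 8 alone lay above every Pparg+/- LysCre macrophage array under both treatments.

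In iDCs the genotype differences were under 2-fold. With vehicle the Pparg fl/- LysCre mean was 0.27 higher on the log2 scale (1.21-fold), a difference near the pooled SD of 0.24, and the groups overlapped. Without replicate 5 it was 0.38. With RSG the difference was 0.73 (1.66-fold) against a pooled SD of 0.28, and 0.80 without replicate 5. The lowest Pparg fl/- LysCre array, at 16.18, was above the highest Pparg+/- LysCre array, at 16.00. In this comparison 15.2% of the tested probes had groups that did not overlap.

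**Figure D2:**
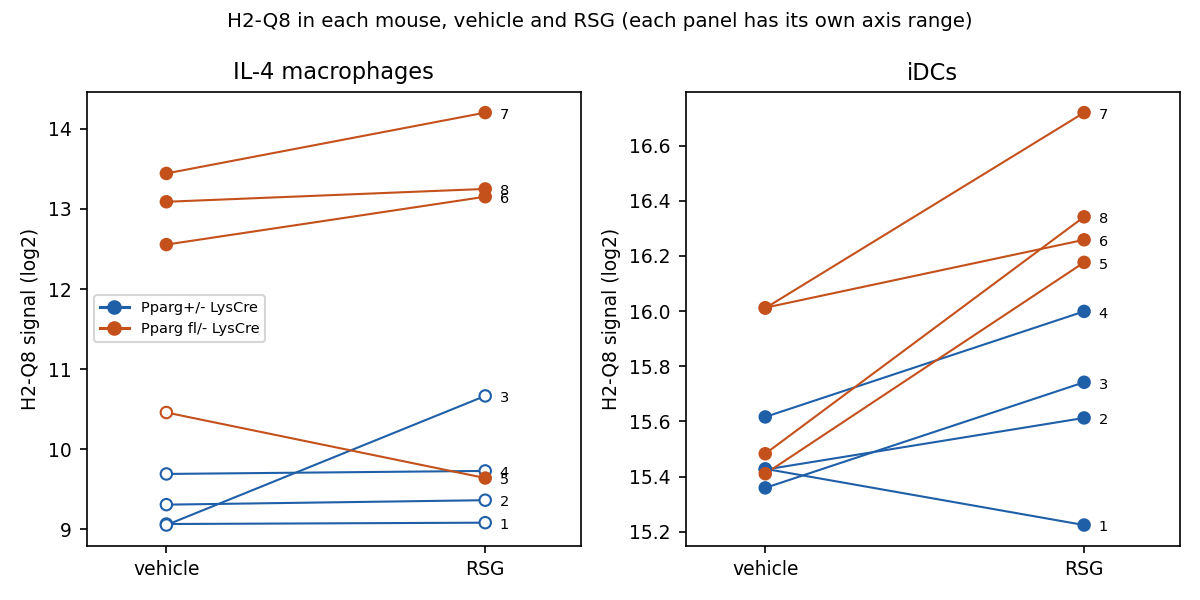
H2-Q8 signal (log2, y axis) of each mouse with vehicle and with RSG, IL-4 macrophages on the left and iDCs on the right, each panel with its own range; blue is Pparg+/- LysCre, orange Pparg fl/- LysCre, open points have S/N under 3 and numbers are the mice. In iDCs the lines of all 4 Pparg fl/- LysCre mice and of 3 of 4 Pparg+/- LysCre mice go up, by at most 0.86, which is small beside the gap between macrophages of mice 1 to 4 and mice 6 to 8.

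RSG went with small differences. In Pparg fl/- LysCre iDCs the signal was higher with RSG in 4 of 4 mice, by 0.77, 0.25, 0.71 and 0.86 on the log2 scale in replicates 5 to 8. The mean was 0.65 ± 0.27 (1.56-fold), or 0.60 without replicate 5, and 0.51 and 0.78 on the 2 scan days. Vehicle and RSG arrays did not overlap, which held for 4.94% of the tested probes. In Pparg+/- LysCre iDCs the differences were -0.20, 0.19, 0.38 and 0.38 in replicates 1 to 4, with a mean of 0.19 ± 0.28 (1.14-fold), and the treatments overlapped. By scan day they were -0.01 and 0.38. The RSG difference was thus 0.46 larger in Pparg fl/- than in Pparg+/- LysCre iDCs, against a pooled SD of 0.27 between mice (0.42 larger without replicate 5), and the mice of the 2 genotypes overlapped.

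In Pparg fl/- LysCre macrophages the differences with RSG were -0.82, 0.60, 0.76 and 0.16 in replicates 5 to 8. The mean was 0.17 ± 0.71, well inside its spread, and 0.51 ± 0.31 in replicates 6 to 8. The value of replicate 5 compares an array above the S/N limit with one below it. By scan day the mean was -0.11 for replicates 5 and 6 and 0.46 for replicates 7 and 8. The RSG difference was 0.47 larger in iDCs than in macrophages of these mice with all 4 mice, within the pooled SD of 0.54, and 0.10 larger without replicate 5. For Pparg+/- LysCre macrophages no fold is given, because both treatments were below detection.

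The other class I gene with a named probe, H2-Q7, encodes the heavy chain best known as the Qa-2 antigen, and its signal was above detection on all 32 arrays. Its probe was not used to choose H2-Q8, although the 2 genes are closely related, and it was tested with limma over all 16620 probes. A call needed a 1.5-fold change and, after Benjamini-Hochberg adjustment, p under 0.05. H2-Q7 was called in 4 of 16 comparisons, with a higher signal in iDCs in 3 and in Pparg fl/- LysCre cells in 1.

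H2-Q7 rose from macrophages to iDCs in Pparg+/- LysCre cells. With vehicle, macrophages had 18.29, 18.16, 18.45 and 18.25 and iDCs 19.01, 19.07, 19.07 and 19.08, a log2 difference of 0.77 (SE 0.15, limma adjusted p = 0.000189), where 28.9% of tested probes were called. With RSG, macrophages had 18.10, 18.24, 18.41 and 18.27 and iDCs 18.96, 19.49, 19.35 and 19.51, a difference of 1.07 (adjusted p = 2.5e-06), where 28.2% were called. Groups did not overlap in either treatment, which held for 43.8% (vehicle) and 42.2% (RSG) of tested probes. In Pparg fl/- LysCre cells the difference with RSG was 0.63 (adjusted p = 0.00195; 24.6% of probes called). With vehicle it was 0.44 (adjusted p = 0.0246), under the 1.5-fold limit, where 27.6% were called. Without replicate 5 the RSG difference was 0.53 and fell under the same limit (adjusted p = 0.00397). The RSG call was also lost with the methods' t-test (adjusted p = 0.0899), in a fit of the 2 groups alone (adjusted p = 0.0684) and, at 0.50, with the assay-normalized signal.

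H2-Q7 was also higher in Pparg fl/- LysCre than in Pparg+/- LysCre macrophages, and mouse by mouse it was ordered much like H2-Q8. In Pparg fl/- LysCre macrophages replicates 5 to 8 had 18.71, 18.86, 19.33 and 19.21 with vehicle and 18.56, 19.11, 19.49 and 19.09 with RSG, and replicate 5 was again the lowest and replicate 7 the highest. With RSG the genotype difference was 0.81 (1.75-fold, SE 0.18, adjusted p = 0.0136), where 9.33% of probes were called. Without replicate 5 it was 0.98. With vehicle the genotypes did not overlap, which held for 12.8% of tested probes. The vehicle difference was 0.74 and did not pass (limma adjusted p = 0.0672; 0.156% of probes called). It passed without replicate 5, at 0.85 (limma adjusted p = 0.00102), where 2488 of the 16620 probes were called. It also passed with mouse as a random replicate block, at 0.74 (limma adjusted p = 0.0409). The share of probes called in the block fit is not given here. The call with RSG was lost without replicate 1 (0.76, adjusted p = 0.0574), with the methods' t-test (adjusted p = 0.0893) and in a fit of the 2 groups alone (adjusted p = 0.0577).

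In iDCs the genotype difference of H2-Q7 was 0.41 with vehicle (adjusted p = 0.0770; 2.83% of probes called) and 0.37 with RSG (adjusted p = 0.0725; 6.65% called). Neither passed. Without replicate 5 they were 0.46 and 0.43 (adjusted p = 0.0229 and 0.0243), under the 1.5-fold limit. The differences with RSG did not pass in any of the 4 kinds of culture. They were -0.03 in Pparg+/- LysCre macrophages (1.2% of probes called), 0.27 in Pparg+/- LysCre iDCs (adjusted p = 0.224; 6.01% called), 0.04 in Pparg fl/- LysCre macrophages, where 0% of probes were called by limma and 497 had an unadjusted p under 0.05, and 0.23 in Pparg fl/- LysCre iDCs (adjusted p = 0.549; 0.692% called). The last was higher with RSG in 4 of 4 mice, as for H2-Q8. None of the 4 differences between RSG effects passed for H2-Q7. They ranged from -0.04 to 0.30, and the share of probes called was 0.00602% and 0.439% between genotypes in macrophages and iDCs, and 3.02% and 0.108% between cell types in Pparg+/- and Pparg fl/- LysCre cells.

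**Figure D3:**
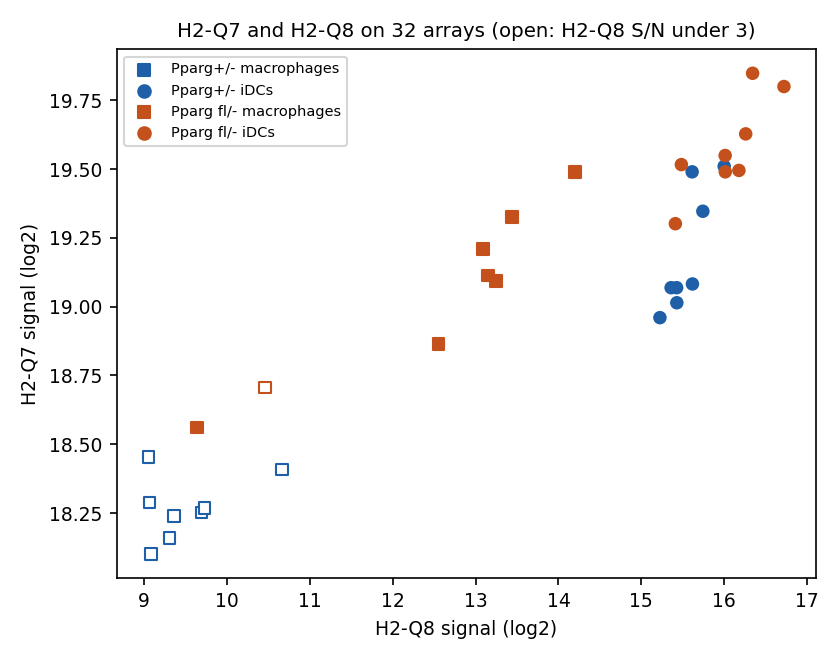
Signal of the H2-Q7 probe (log2, y axis) against that of the H2-Q8 probe (log2, x axis) on 32 arrays; squares are macrophages, circles iDCs, blue Pparg+/- LysCre, orange Pparg fl/- LysCre, and open symbols mark an H2-Q8 S/N under 3. The order along both axes is much the same (r = 0.92), and in iDCs, over both treatments, the Pparg fl/- LysCre arrays span 19.30 to 19.85 and the Pparg+/- LysCre arrays 18.96 to 19.51 on the H2-Q7 axis.

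Of 118 genes listed for class I and class II molecules, peptide loading and transport, the immunoproteasome and its regulators, MHC transcription factors, class I receptors and the interferon response, only H2-Q8, H2-Q7 and Psme3 had a named probe. Psme3 encodes the γ subunit of the PA28 proteasome activator, a nuclear relative of the interferon-inducible PA28 subunits that aid class I peptide production. It was called in 0 of 16 comparisons, both by limma and by the methods' t-test, and in 1 of 16 limma gave an unadjusted p under 0.05. Its group means lay between 12.88 and 13.27. That was the comparison of genotypes in RSG-treated iDCs, where Pparg+/- LysCre mice had 13.24, 13.29, 13.19 and 13.35 and Pparg fl/- LysCre mice 12.99, 12.92, 12.56 and 13.04. The log2 difference of -0.39 (adjusted p = 0.0457) was under the fold limit, and its sign was opposite to that of H2-Q8 and H2-Q7. With 2 genes besides H2-Q8, the list gives no picture of the pathway.

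In macrophages 1 marker of another cell type ran with H2-Q8 and 1 ran the opposite way. Of 83 markers listed for 8 cell types, 2 had a named probe, Hba-a1 of 7 erythroid markers and Ear1 of 12 markers of eosinophils, basophils and mast cells. Hba-a1 encodes a hemoglobin α chain, and Ear1 encodes an eosinophil-associated ribonuclease that macrophages express too. In Pparg+/- LysCre macrophages Hba-a1 was not detected on any of 8 arrays (7.28 to 8.32). In vehicle-treated Pparg fl/- LysCre macrophages it was 8.59 in replicate 5 and 12.43, 12.67 and 12.21 in replicates 6, 7 and 8, and with RSG 8.67, 12.19, 12.47 and 12.15. Replicates 6, 7 and 8 thus had both transcripts detected in macrophages under both treatments, whereas in replicate 5 Hba-a1 was detected under neither and H2-Q8 only with RSG.

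With RSG the Hba-a1 means of the genotypes in macrophages differed 10.8-fold (adjusted p = 0.0252 by limma), with replicate 5 of the higher group below detection. Without replicate 5 they differed 20.2-fold. With vehicle the means differed 10.11-fold and did not pass with all mice (limma adjusted p = 0.0761). Without replicate 5 they differed 19.7-fold (limma adjusted p = 8.3e-07), where 2488 probes were called. The Pparg+/- LysCre macrophage arrays were below detection, so none of these folds is a lower bound. With mouse as a random replicate block the vehicle difference passed (adjusted p = 0.0427). The RSG call was lost on leaving out any 1 of the other 7 mice (limma adjusted p = 0.0585 to 0.0876). Of all 20 alternative settings, 10 kept this call and 10 lost it, so some changes of processing lost it too. Between cell types, Hba-a1 had by its means the direction of H2-Q8 in Pparg+/- LysCre cells and the opposite direction in Pparg fl/- LysCre cells. Its means in Pparg+/- LysCre iDCs were 9.99 with vehicle and 9.16 with RSG, and those of macrophages 8.14 and 7.93. Of the 4 iDC arrays, 3 with vehicle and 2 with RSG were above detection, each higher than the macrophage array of its mouse. In the other mice both arrays were below detection, so their order says nothing, and no fold is given. Neither difference of means passed (limma adjusted p = 0.0903 and 0.279). The means of Pparg fl/- LysCre iDCs were 9.91 and 9.84, and those of macrophages 11.47 and 11.37. In replicates 6, 7 and 8 the signal was lower in iDCs under both treatments. The macrophage arrays of replicate 5 were below detection, so its direction cannot be read. These 2 differences did not pass (limma adjusted p = 0.160 and 0.182). With mouse as a replicate block all 4 differences between cell types passed (adjusted p = 0.000482, 0.0131, 0.00232 and 0.00323). So they did without replicate 5 (0.000355, 0.0117, 0.000574 and 0.00759).

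Ear1 ran the other way in macrophages. With vehicle, Pparg+/- LysCre mice had 17.65, 17.37, 17.66 and 17.47, and Pparg fl/- LysCre mice 17.20, 14.64, 14.59 and 15.24. With RSG they had 19.21, 19.18, 19.53 and 19.23 against 17.19, 15.84, 15.08 and 16.58, a log2 difference of -3.11 (adjusted p = 0.00346), or -3.45 without replicate 5. With vehicle the difference of -2.12 did not pass (adjusted p = 0.0671). It passed with mouse as a random replicate block (limma adjusted p = 0.0409) and, at -2.71, without replicate 5 (limma adjusted p = 6.1e-05), where 2488 probes were called. In iDCs Ear1 did not differ by genotype past the threshold (-0.11 with vehicle, -0.63 with RSG). Between cell types, Ear1 was lower in Pparg+/- LysCre iDCs than in macrophages, by -2.56 with vehicle (adjusted p = 2.7e-05) and -1.50 with RSG (adjusted p = 0.00699), opposite to H2-Q8. The differences in Pparg fl/- LysCre cells were -0.55 with vehicle (adjusted p = 0.344) and 0.98 with RSG (adjusted p = 0.0829), the latter with the sign of H2-Q8. It passed without replicate 5, at 1.43 (adjusted p = 0.00217), and with mouse as a replicate block (adjusted p = 0.0290). With RSG it rose in iDCs of both genotypes, by 2.81 in Pparg+/- (adjusted p = 8.5e-05) and 2.29 in Pparg fl/- LysCre mice (adjusted p = 0.00430), and the last call was lost without replicate 6 (adjusted p = 0.0612) and with the methods' t-test (adjusted p = 0.171). The part of other cells in the H2-Q8 signal was not tested, and of the listed markers only these 2 could be read.

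**Figure D4:**
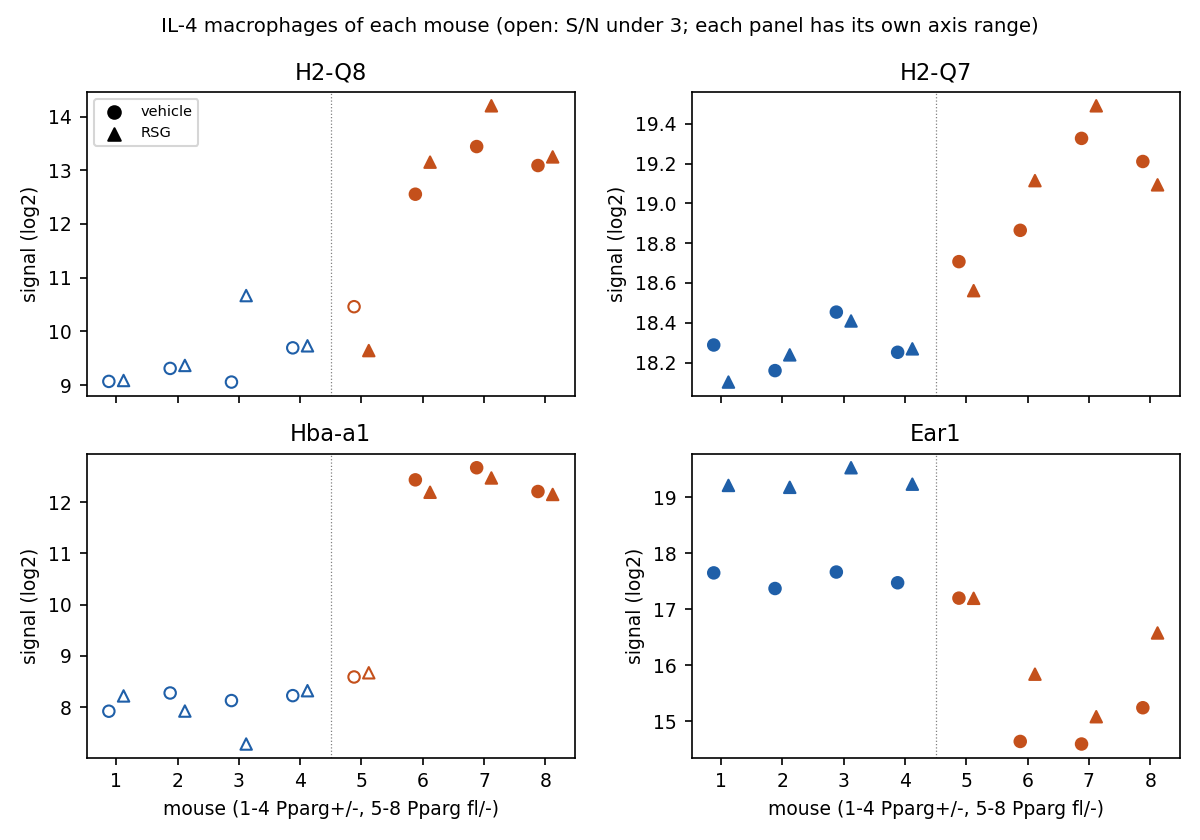
Signal (log2, y axes, each panel with its own range) of H2-Q8, H2-Q7, Hba-a1 and Ear1 in IL-4 macrophages of each mouse (x axis; mice 1 to 4 Pparg+/- LysCre in blue, 5 to 8 Pparg fl/- LysCre in orange), with circles for vehicle, triangles for RSG and open symbols for S/N under 3. Mouse 5 lies nearer to mice 1 to 4 than mice 6 to 8 do in all 4 panels and under both treatments.

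The genes most like H2-Q8 were sought among the 154 other probes with 1 symbol that passed the detection filter, by Pearson's r over the 32 arrays. The arrays share mice and the groups differ widely in level, so r is a description and has no p. The 5 highest were Mapk7 (0.93), H2-Q7 (0.92), Zkscan17 (0.88), Lrrk1 (0.87) and Zbtb18 (0.86), and over the 8 group means they had 0.96, 0.94, 0.93, 0.92 and 0.88. Mapk7 encodes the kinase ERK5, Lrrk1 a leucine-rich repeat kinase, Zkscan17 a zinc finger protein and Zbtb18 a zinc finger repressor of transcription. The 3 lowest were Atox1 (-0.96), Crip1 (-0.95) and Lgals1 (-0.94). Atox1 encodes a copper chaperone, Crip1 a small LIM protein and Lgals1 galectin-1. Such values were not rare. Of the 16619 other tested probes, named or not, 350 (2.11%) had r above 0.9 and 356 (2.14%) below -0.9.

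The likeness held within both cell types for few of these genes. Within the 16 macrophage arrays H2-Q7 (0.96), Mapk7 (0.95) and Zbtb18 (0.93) stayed close to H2-Q8, while Zkscan17 (0.38) and Lrrk1 (0.08) did not. H2-Q8 was below detection on 9 of these 16 arrays, so r there rests largely on background signal and on the step up to mice 6 to 8. The macrophage arrays that detected H2-Q8 were those of mice 6 to 8, at 12.55 to 14.20, and the RSG array of mouse 5. The last lay far lower, at 9.64, and made up most of their range. Over these 7 arrays r was 0.93 for H2-Q7, 0.88 for Mapk7, 0.92 for Zbtb18, 0.83 for Zkscan17 and 0.23 for Lrrk1. Over the 14 macrophage arrays without mouse 5 it was 0.97, 0.95, 0.94, 0.38 and 0.10. Lrrk1 followed the cell type, with group means of 11.95 to 12.06 in macrophages of either genotype and 13.24 to 13.61 in iDCs. Zbtb18 had 14.82 and 14.51 in Pparg+/- LysCre macrophages, 15.69 and 15.77 in Pparg fl/- LysCre macrophages, and 15.77 to 15.93 in iDCs. In macrophages Hba-a1 (0.94) was close to H2-Q8 as well, whereas over all 32 arrays its r was 0.41.

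Within the 16 iDC arrays, H2-Q7 was the only 1 of the 5 with r above 0.8 (0.86). Zkscan17 had 0.64, Lrrk1 0.50, Zbtb18 0.04 and Mapk7 -0.41. Of the 3 opposite genes, Lgals1 (-0.74) and Atox1 (-0.63) kept a negative r of some size there and Crip1 (-0.17) less so, whereas in macrophages all 3 lay between -0.82 and -0.94. After the group means were subtracted, r over the 32 arrays was 0.82 for H2-Q7, 0.84 for Zbtb18, 0.74 for Mapk7, 0.31 for Zkscan17 and 0.05 for Lrrk1, but these values rest largely on mouse 5, whose low macrophage arrays set most of the H2-Q8 spread within groups. Without it, over 28 arrays, r was 0.67 for H2-Q7, 0.54 for Zbtb18, 0.22 for Mapk7, 0.14 for Zkscan17 and 0.33 for Lrrk1. Over the same 28 arrays with group means kept, the 5 genes had 0.92, 0.84, 0.92, 0.87 and 0.85 in that order. H2-Q7 alone of the 8 had an absolute r above 0.8 over all arrays and in each cell type.

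**Figure D5:**
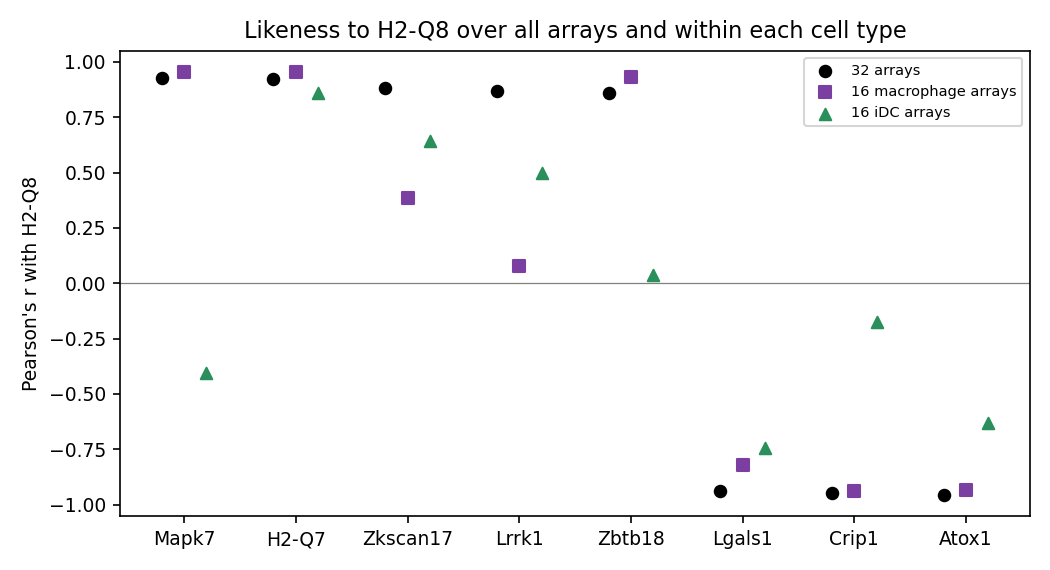
Pearson's r with H2-Q8 (y axis, from -1 to 1) for the 5 most and 3 least alike named probes (x axis), over 32 arrays (black circles), the 16 macrophage arrays (purple squares) and the 16 iDC arrays (green triangles). H2-Q7 is high in all 3, Lrrk1 is near 0 in macrophages and Mapk7 turns from 0.95 in macrophages to -0.41 in iDCs.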

How the data were processed

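The data were 32 one-color chemiluminescence arrays in 8 groups of 4. The authors deposited, per array, a background-corrected signal, an assay-normalized signal, the S/N score of each probe and a flag, and for the series a table of ratios per probe with column medians of 0.951 to 1.06. By their values these are signals divided by a number per array and by the probe's median over arrays. The study's methods describe such scaling, per chip and per gene, for another array platform, so which statistic was used here stays unknown. The number of arrays limits the precision.

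The deposited signals of the 33012 probes were log2 transformed and quantile normalized over all arrays (R 4.3.3, limma 3.58.1). Probes with S/N of at least 3 on at least 3 of 4 arrays of a group were tested (16620) with lmFit and eBayes on group means, with Benjamini-Hochberg adjustment. RSG and genotype effects were fitted on the 16 arrays of a cell type and cell type effects on all 32. Calls needed a fold of 1.5 or more, besides an adjusted p under 0.05. Probes were named by transcript accession through a RefSeq table (assembly GRCm38.p6). No coordinates are given, as the files name no build.

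H2-Q8 and all gene lists were chosen with earlier results of these data known. Named genes were H2-Q8, list genes with a probe, and the 5 most and 3 least correlated named probes. The vehicle, RSG, macrophage and iDC arrays of a replicate number come from the same mouse per the labels, so they pair. Deviations of arrays of 1 mouse and cell type had a median correlation of 0.284 (0.00953 to 0.623). The main fit had no mouse block, so it left this pairing out and took the arrays of a mouse as independent. Its p-values measure the spread between mice within the groups of 1 series. On simulated data the fit recovered 52.5% to 57% of 200 changes of 1 log2 unit for comparisons of 2 groups and 30.5% to 39% for differences in RSG effect, among 16620 probes. The simulated noise was independent between arrays, with no shared mice and no outlying mouse. The recovery may therefore differ on the real arrays. Alternatives were median scaling, the deposited ratios and assay-normalized signals, an offset of 95.1, other filters and thresholds, the methods' t-test, blocks for mouse and scan day, and leaving out each mouse.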

Additional observations from a re-analysis of the deposited data

Results flagged for a closer look

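Among 42 sets of 4 values of H2-Q8, H2-Q7, Psme3, Hba-a1 and Ear1, 4 held 1 value that lay well away from the rest, and about 1 set in 20 would by chance. None was of H2-Q8 or H2-Q7. Of these 4, 3 were the low Hba-a1 signal of replicate 5 among Pparg fl/- LysCre mice, and its distance to the next mouse, as a share of the whole range, was 0.886 in vehicle-treated macrophages, 0.915 in RSG-treated macrophages and 0.833 in RSG-treated iDCs. The remaining set was Ear1 in RSG-treated Pparg+/- LysCre macrophages, where replicate 3 was highest (0.839). The part of these values in the H2-Q8 differences was not tested.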

How the results depend on the processing

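Median scaling, the deposited ratios, the assay-normalized signal, an added offset and blocks for mouse and scan day gave 67 values for 13 H2-Q8 differences, and all 67 moved by less than 1 SD and kept their sign. The replicate block and the day block left each H2-Q8 mean as it was, since every mouse and day holds both sides; no such block could be made between genotypes. For RSG in Pparg+/- LysCre macrophages, and for the 2 differences in RSG effect that rest on it, no alternative was computed, because the probe was not detected there. Leaving out each mouse gave log2 differences of 2.75 to 3.75 and 2.30 to 3.82 for genotype in vehicle-treated and RSG-treated macrophages, both highest without replicate 5, and of 2.81 to 3.66 and 2.91 to 4.25 for cell type in Pparg fl/- LysCre cells, both lowest without it. RSG in Pparg fl/- LysCre macrophages ran from -0.02 (without replicate 7) to 0.51, so its sign was not stable. The calls of H2-Q7 and Psme3 numbered 4 of 32, and 1 at a 2-fold threshold, 2 with the methods' t-test after adjustment, 2 when each fit held just the 2 groups it compared, 5 with mouse as a replicate block and 3 to 4 without single mice. With the t-test or these smaller fits, H2-Q7 lost its calls for genotype in RSG-treated macrophages (adjusted p = 0.0893 and 0.0577) and for cell type in RSG-treated Pparg fl/- LysCre cells (0.0899 and 0.0684). The cause was not tested, beyond fewer arrays in the fit. Of 80 alternative values for the 4 called H2-Q7 differences, 70 kept the call and none changed sign. The H2-Q8 signal in Pparg+/- LysCre macrophages was under the detection limit, which bounds what these arrays can show there.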
